A study of Mus musculus with 6 samples.

Results

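Ion and water transport across the gut wall was examined through 9 genes, Slc9a3, Slc26a3, Slc26a6, Slc4a4, Slc12a2, Cftr, Aqp1, Aqp4 and Aqp8. They were taken by name, as probe sets that the platform annotation pairs with exactly 1 gene symbol, out of 18193 genes measured in this way. All 9 were on the array, and each is given by its brightest probe set, the one with the highest mean over the 6 arrays. The tissue was distal jejunum of 7-month-old mice, 3 controls and 3 mutant littermates, with 1 Affymetrix array per animal. In the mutants Hnf4a, which encodes a nuclear receptor of epithelial and metabolic genes, had been deleted with a Cre transgene under a 12.4-kb villin promoter, which is active in the intestinal epithelium. The labels give all 6 animals the strain B6.129X1(FVB)-Hnf4atm1.1Gonz/J, which carries the conditional Hnf4a allele, and do not say whether the controls carried Cre. All 6 had been kept pathogen free and had received ketamine (300 mg/kg) and xylazine (40 mg/kg) before death. RNA came from biopsies of the whole jejunal wall, so muscle, vessels, nerves and immune cells contributed to every value.

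The intestine absorbs sodium chloride by pairing a sodium/hydrogen exchanger with a chloride/bicarbonate exchanger in the brush border, and it secretes chloride from the crypts through apical channels fed by a basolateral cotransporter. Bicarbonate enters enterocytes with sodium across the basolateral membrane and leaves into the lumen in exchange for chloride. Water follows the ions between the cells and through aquaporin channels, which differ between epithelium, vessels and other cells of the wall.

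Values are the authors' log2 signals, on which a difference of 1 is a doubling. Hnf4a fell in the mutants, from 11.72 ± 0.13 (SD, n = 3) to 9.16 ± 0.57 (SD, n = 3), with an adjusted p of 0.00756 in limma's test. Markers of enterocytes were bright on every array, with Vil1 between 12.54 and 12.85. Of 4 measured colon markers, Car1, Hoxb13 and Aqp8 lay between 2.93 and 3.65, under the array medians (3.93 to 3.98). The remaining one, Slc26a3, was bright on every array (8.91 to 10.11). Markers of gut position were uneven. Of 8 proximal markers 1 fell, Onecut2, which lay under the array median on 5 of 6 arrays. Gata4 and Gata6 differed by -0.34 and -0.29, with all mutants below all controls, and did not pass. The rest overlapped between groups. Fabp6, the ileal bile acid binder, read 9.15, 6.67 and 3.37 in controls 1, 2 and 3, and 9.57, 10.03 and 9.80 in mutants 1, 2 and 3. Control 3 carried pancreatic transcripts (Cela2a at 8.95, at most 2.93 elsewhere), and mutant 2 carried fat transcripts (Adipoq at 10.38, at most 8.21 elsewhere). The Y-linked gene Eif2s3y was bright in control 1 and mutant 3 (6.85 and 6.53) and at most 2.75 in the other arrays. The difference between the 3' and 5' actin probe sets, a sign of RNA integrity, ran from 0.39 to 0.66 in controls and from 0.42 to 0.73 in mutants. These features touch single results below and are repeated there.

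Of the 9 genes, 1 changed at an adjusted p under 0.05, the water channel gene Aqp4, which fell. Over all 18193 genes tested, 0.528% were called, and 0.33% were called lower. At an unadjusted p under 0.05 there were 5 of the 9, namely Aqp4, Slc26a6, Aqp1, Slc4a4 and Slc9a3, against 12.1% of all genes. In the same 5 genes the mutant and control values did not overlap, against 17.1% of all genes, and in 4 of them the mutants were the lower group, against 10.2%. The median log2 difference, mutant minus control, was -0.43 for the 9 genes and -0.013 over all genes. The genes were chosen with earlier results of these arrays known, so these shares describe them and test nothing.

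**Figure D1:**
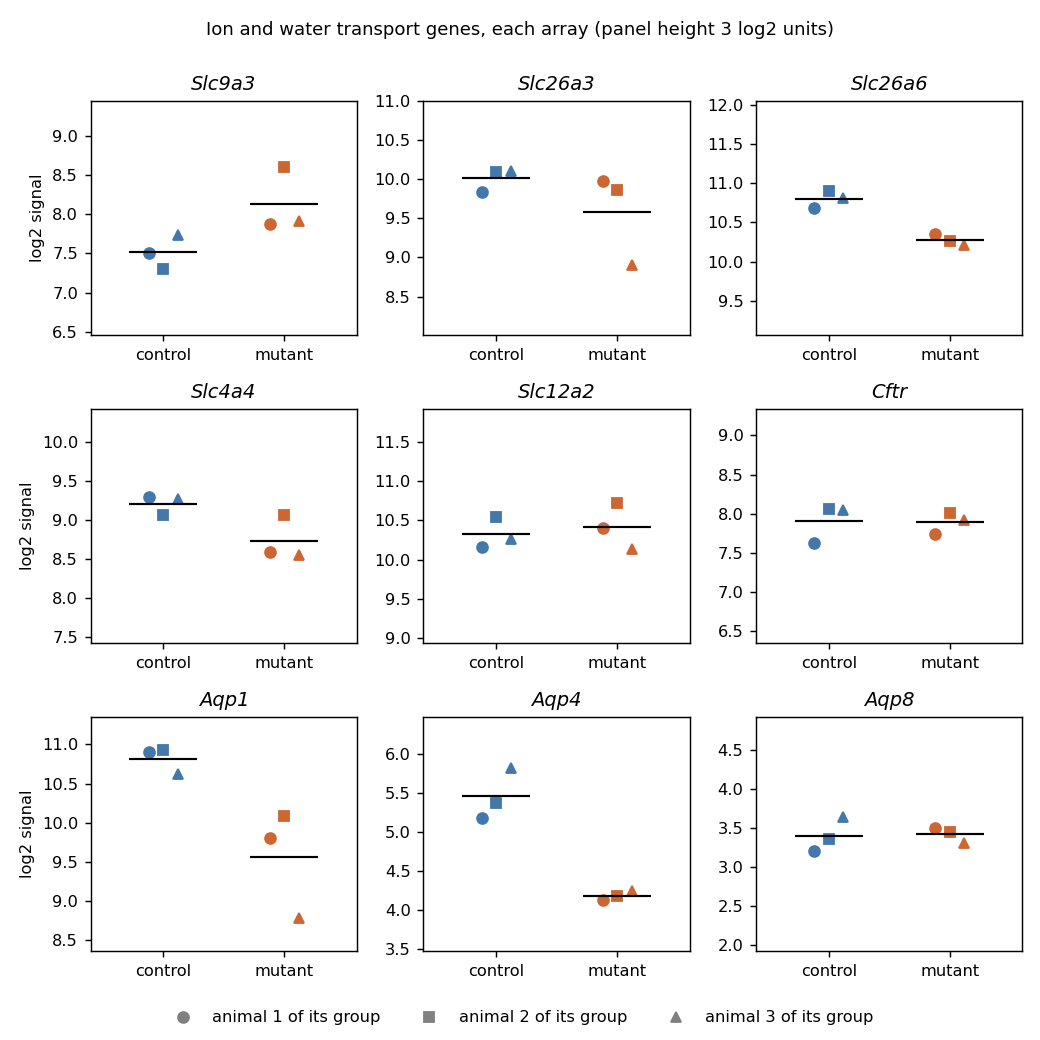
Log2 signal (y axis, 3 log2 units per panel, with a different offset in each) of the 9 genes in each control and mutant array; points are animals and lines are group means (n = 3). The mutants lie below the controls in Aqp4, Aqp1, Slc26a6 and, by 0.003, in Slc4a4, and above them in Slc9a3.

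The window of 250 bases upstream of the annotated start was read from RefSeq (GRCm38.p6) for 7 of the 9 genes, 8 windows in all because Slc4a4 has more than 1 start. Windows were searched on both strands for 3 spellings of the site that HNF4 receptors bind, CAAAGTCCA, CAAAGTTCA and CAAAGGTCA, and for the shorter hexamer AGGTCA, which overlaps the last of these. Slc26a3 is shown for its 9-letter match, with Slc26a6 and Aqp1 as windows without a match. The capitals mark the single 9-letter match.

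Slc26a3, chr12:31437969-31438218, plus strand: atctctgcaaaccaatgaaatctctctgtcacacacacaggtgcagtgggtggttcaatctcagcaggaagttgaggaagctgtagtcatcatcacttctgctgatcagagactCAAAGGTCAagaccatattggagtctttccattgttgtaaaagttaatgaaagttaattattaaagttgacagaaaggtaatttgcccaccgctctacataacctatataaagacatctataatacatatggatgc
Slc26a6, chr9:108853793-108854042, plus strand: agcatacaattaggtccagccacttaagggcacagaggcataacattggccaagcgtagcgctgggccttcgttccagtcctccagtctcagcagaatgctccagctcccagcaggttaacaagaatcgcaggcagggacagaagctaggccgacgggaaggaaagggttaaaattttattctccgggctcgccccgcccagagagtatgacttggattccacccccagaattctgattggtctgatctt
Aqp1, chr6:55336049-55336298, plus strand: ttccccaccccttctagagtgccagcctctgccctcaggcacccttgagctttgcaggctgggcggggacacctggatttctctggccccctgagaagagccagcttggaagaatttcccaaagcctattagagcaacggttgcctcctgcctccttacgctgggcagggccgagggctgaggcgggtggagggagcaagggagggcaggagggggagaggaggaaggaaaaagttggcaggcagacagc

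The Slc26a3 window holds CAAAGGTCA from position -136 to -128 relative to the start, and its last letters are also the hexamer. The other windows hold none of the 9-letter spellings, and 1 of the Slc4a4 windows holds the hexamer on the opposite strand from -121 to -116. Of all 32851 windows of this length, 0.426% hold CAAAGGTCA, 1.14% hold at least 1 of the 9-letter spellings and 14.0% hold the hexamer. Windows of Slc12a2 and Aqp4 were not analysed here. The match is a description of letters and not evidence of binding. None of the genes with a searched window passed the test, and Aqp4, the gene that did, is among those without a searched window. Matches were therefore not compared with changes.

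Sodium absorption across the brush border rests on Slc9a3, which encodes the sodium/hydrogen exchanger NHE3. Its log2 signal was 7.50, 7.30 and 7.73 in controls 1, 2 and 3, and 7.87, 8.61 and 7.92 in mutants 1, 2 and 3. All mutants lay above all controls, by 0.14 at the nearest pair, and mutant 2 stood highest. The difference was 0.62 ± 0.21 SE, or 1.54-fold (95% interval 1.10 to 2.14), and did not pass (limma, unadjusted p = 0.0181, adjusted p = 0.284). Without mutant 2, the array with fat transcripts, the difference was 0.38. The other Slc9a3 probe set lay under the array median on all 6 arrays and differed by 0.057. Averaged over both probe sets, the difference was 0.34.

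Slc26a3 encodes DRA, the chloride/bicarbonate exchanger that works beside NHE3 and whose loss causes congenital chloride diarrhoea. Controls 1, 2 and 3 read 9.84, 10.10 and 10.11, and mutants 1, 2 and 3 read 9.98, 9.86 and 8.91. Mutants 1 and 2 lay among the controls and mutant 3 lay below them all. The difference of -0.43 ± 0.26 SE did not pass (limma, adjusted p = 0.589), and its 95% interval ran from 0.487-fold to 1.13-fold. Without mutant 3 it was -0.092. A second bright probe set differed by -0.44, with mutant 3 again the lowest at 7.41 against 8.36 in both other mutants. Its controls read 8.38 to 8.58, so all mutants lay below all controls, mutants 1 and 2 only narrowly. A dimmer one differed by -0.69 (limma, unadjusted p = 0.0364, adjusted p = 0.469). Its mutants 1 and 3 read 6.45 and 6.26, and mutant 2, at 7.42, lay within the control range of 7.32 to 7.57. Mutant 3 also had the lowest mean of the 11 villus enterocyte markers, 12.17 against 12.42 to 12.44 in the other mutants and 12.55 to 12.70 in controls. It also had the highest Slc10a2, the ileal bile acid transporter gene, at 6.98 against 2.93 to 4.40 on the other arrays. The part of these in the Slc26a3 value was not tested.

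Slc26a6 encodes PAT1, the other apical anion exchanger of the small intestine, which also carries oxalate. Its values were 10.69, 10.91 and 10.82 in controls and 10.35, 10.26 and 10.21 in mutants. The groups were apart by 0.34, and the spread was small, with an SD of 0.11 among the 3 controls and of 0.07 among the 3 mutants. The mutant mean was 69.1% of control (log2 difference -0.53 ± 0.10 SE, 95% interval 0.586-fold to 0.816-fold), and the adjusted p in limma's test was 0.0839. Under 18 alternative settings the difference kept its sign and ran from -0.59 to -0.47, with adjusted p from 0.0562 to 0.604. Slc26a6 therefore did not pass the test under any of these settings. The array holds 1 Slc26a6 probe set with this symbol alone. Villus enterocyte markers, of which 0 of 11 passed in limma's test and 4 had an unadjusted p under 0.05, had a summed linear signal of 89325 to 94753 in controls and 76551 to 84771 in mutants. Their part in the Slc26a6 value was not tested.

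Slc4a4 encodes NBCe1, which brings sodium and bicarbonate in across the basolateral membrane. Controls read 9.30, 9.06 and 9.27, and mutants read 8.59, 9.06 and 8.55. Mutant 2 lay only 0.003 below control 2, while mutants 1 and 3 lay well below all controls. The difference was -0.47 ± 0.15 SE (72.0% of control) and did not pass in limma's test (adjusted p = 0.27). Of the 4 other Slc4a4 probe sets, 3 were above the array median and differed by -0.35, -0.21 and -0.25, and averaged over all 5 probe sets the gene differed by -0.32. Pancreatic ducts express NBCe1 as well, and control 3 held pancreatic acinar transcripts. Without control 3 the Slc4a4 difference was -0.44. The 4 measured pancreatic duct markers overlapped between groups, with a median difference of 0.089. Their summed signal was 5571 to 5909 in controls and 5237 to 7054 in mutants. Most of it came from Krt19, which was bright on every array (12.31 to 12.76). Onecut1 lay under the array median on every array, and Muc1 and Bicc1 read 3.72 to 4.43 and 6.04 to 6.85. The sum therefore followed Krt19 and cannot show how much duct tissue an array held. The part of pancreatic tissue in the Slc4a4 value was not tested.

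Chloride secretion starts with Slc12a2, which encodes the basolateral cotransporter NKCC1, and ends with Cftr, the apical chloride channel mutated in cystic fibrosis. Slc12a2 read 10.16, 10.54 and 10.27 in controls and 10.40, 10.72 and 10.14 in mutants. The groups overlapped throughout, and the difference of 0.10 ± 0.17 SE turned to -0.053 without mutant 2. Its 2 other probe sets differed by 0.095 and 0.36, the latter with 9.16 in mutant 1 and 7.97 in mutant 3 against 7.99 to 8.48 in controls. Cftr read 7.63, 8.06 and 8.05 in controls and 7.74, 8.01 and 7.92 in mutants. Every mutant value of Cftr lay within the control range. The Cftr difference was -0.023 ± 0.14 SE, with a 95% interval from 0.781-fold to 1.24-fold, and it turned to 0.050 without control 2, 0.045 without control 3 and 0.051 without mutant 1. Neither gene passed (limma, adjusted p = 0.883 and 0.971), and the interval for Slc12a2 ran from 0.817-fold to 1.40-fold. These intervals do not show that the groups were equal.

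Aqp4 encodes a water channel best known from brain astrocytes, which in the small intestine lies in the basolateral membrane of crypt cells. Its log2 signal was 5.18, 5.37 and 5.82 in controls 1, 2 and 3, and 4.13, 4.19 and 4.24 in mutants 1, 2 and 3. The 3 mutants lay close together, with an SD of 0.06, and 0.94 below the lowest control. Aqp4 fell by 1.27 ± 0.16 SE, to 41.4% of control (95% interval 0.319-fold to 0.537-fold, limma adjusted p = 0.0218), and ranked 41 among 18193 genes by p. The mutant values lay just above the array medians, in the range of background signal, and the fold is uncertain for that reason.

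Whether Aqp4 was called varied with the arrays in the fit, and 3 of 6 refits with 1 array left out passed. In these refits the difference ran from -1.41 to -1.09, with an unadjusted p of at most 0.000365 in limma's test. The count of genes called over all genes moved too, from 96 to 24 without control 2 and 41 without mutant 2, but was 96 without mutant 1. Control 3, which held pancreatic transcripts, was the highest, and without it the difference was -1.09. The call was lost in limma's test without control 2 (adjusted p = 0.0847), mutant 1 (adjusted p = 0.0534) or mutant 2 (adjusted p = 0.0831). It was also lost without control 3 and mutant 2 together (adjusted p = 0.205), and with values floored at the 20th percentile of each array (adjusted p = 0.0802). The Aqp4 values themselves lay above that floor, and the difference stayed at -1.27. Over all 18 alternatives the adjusted p ran from 0.0127 to 0.205 in limma's test, 13 of them passed, and the difference ran from -1.41 to -0.86. A second Aqp4 probe set read 4.67, 5.26 and 5.35 in controls and 4.27, 3.56 and 3.89 in mutants. Its groups did not overlap either, but its difference of -1.19 ± 0.23 SE missed the threshold over all probe sets (limma, adjusted p = 0.129). The third lay under the array median on all arrays and differed by -0.11.

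Enteric neurons and glia can express Aqp4 too. Of 8 measured markers of these cells, 0 passed in limma's test and 0 had an unadjusted p under 0.05, with a median difference of 0.032. Their summed linear signal ran from 179 to 201 in controls and from 175 to 201 in mutants. Tubb3, Elavl4, Snap25 and S100b lay under the array median on most arrays, where a change is hard to detect. Only Sox10 did not overlap between groups, at 6.01 to 6.16 in controls and 5.72 to 5.94 in mutants. Crypt and cycling markers had 0 of 9 past the test and 0 at an unadjusted p under 0.05, and their summed signal was 5820 to 6373 in controls and 5365 to 5985 in mutants. Ileal markers lay higher in the mutant mean: 0 of 4 passed in limma's test and 2 had an unadjusted p under 0.05. By gene the differences were 3.40 for Fabp6, 1.96 for Slc10a2, 0.40 for Fgf15 and 0.23 for Guca2a. The summed signal was 3838 to 5381 in controls and 5906 to 6295 in mutants, most of it from Guca2a, which was bright on every array (11.89 to 12.34). The part of the position along the gut in the Aqp4 value was not tested.

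Aqp1 encodes the water channel of red blood cells and of capillary and lymphatic endothelium. Controls 1, 2 and 3 read 10.90, 10.92 and 10.63, and mutants 1, 2 and 3 read 9.80, 10.09 and 8.79. All mutants lay below all controls, by 0.54 at the nearest pair, and mutant 3 stood well below the other mutants. The mutant mean was 41.8% of control, a difference of -1.26 ± 0.30 SE, with a 95% interval from 0.259-fold to 0.675-fold. With a mutant SD of 0.68 (n = 3), against 0.16 (n = 3) in controls, it did not pass (limma, adjusted p = 0.144). Without mutant 3 the difference was -0.87 with an adjusted p of 0.0617, and over 18 alternatives the adjusted p ran from 0.0617 to 0.415. The array holds 1 Aqp1 probe set.

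Because whole tissue was measured, fewer cells of a type and less RNA per cell cannot be told apart. Of 8 measured endothelial markers, 0 passed in limma's test and 0 had an unadjusted p under 0.05, with a median difference of -0.091. Their summed signal was 443 to 577 in controls and 479 to 620 in mutants. All 8 overlapped between groups, with 3 higher in the mutant mean (Plvap 0.36, Esam 0.30, Tek 0.27) and 5 lower (Emcn -0.55, Kdr -0.30, Pecam1 -0.23, Tie1 -0.10, Cdh5 -0.081). The 3 measured red cell markers lay near or below the array medians, with a summed signal of 25.1 to 28.6 in controls and 25.3 to 38.0 in mutants. At this level the sum cannot show how many red cells an array held.

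Aqp8, a water channel of colon, liver and pancreatic acinar cells, lay under the array median on all 6 arrays. It read 3.20, 3.35 and 3.64 in controls and 3.49, 3.45 and 3.31 in mutants, with overlapping groups and a difference of 0.019 ± 0.13 SE. Control 3, the array with pancreatic transcripts, was the highest, though still below its median of 3.95. At this level a change in Aqp8 was not detectable.

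**Figure D2:**
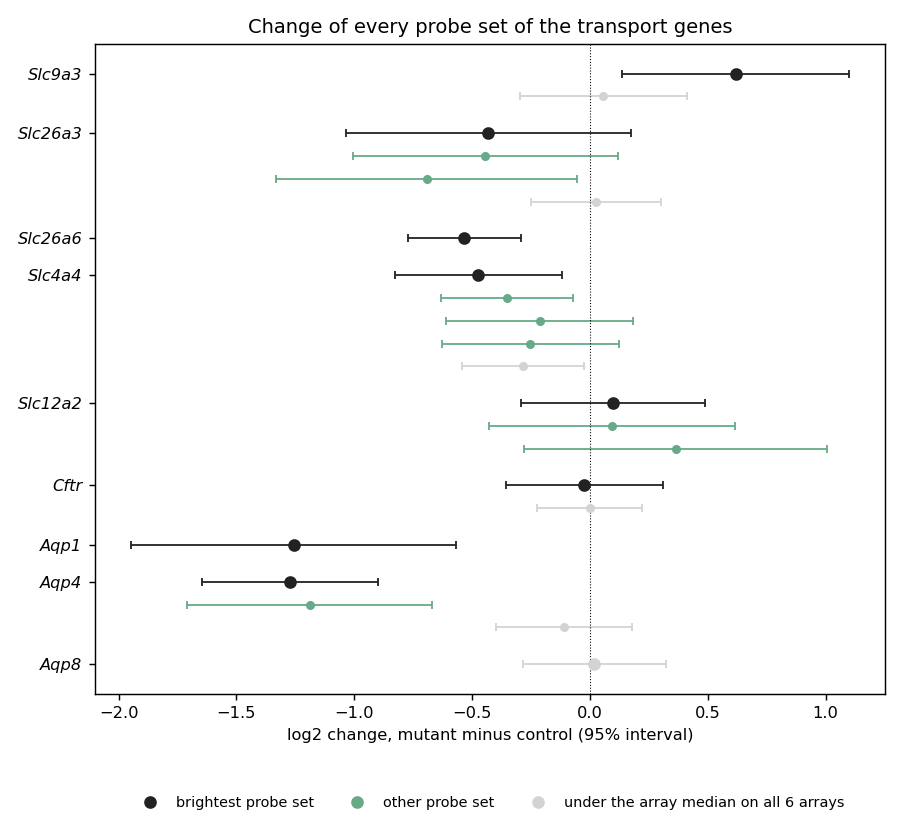
Log2 change, mutant minus control, with 95% intervals from limma (x axis) for all 22 probe sets of the 9 genes (rows); grey marks probe sets under the array median on all 6 arrays. The brightest probe sets of Aqp1, Slc26a6, Slc4a4 and Aqp4 have intervals wholly below 0, that of Slc9a3 lies above 0, and Cftr, Slc12a2 and Aqp8 are centred near it.

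The 9 genes had 13 further probe sets, of which 12 differed in the same direction as the brightest one, though 5 of the 13 lay under the array median throughout. None of the 13 was called in a fit over all probe sets with limma, where 0.193% of 45037 were, and 4 had an unadjusted p under 0.05. The exception in direction was a Slc26a3 probe set of this dim kind, at 0.024. The probe sets used for Slc26a3 and Cftr are of the Affymetrix type that can match transcripts of more than 1 gene.

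**Figure D3:**
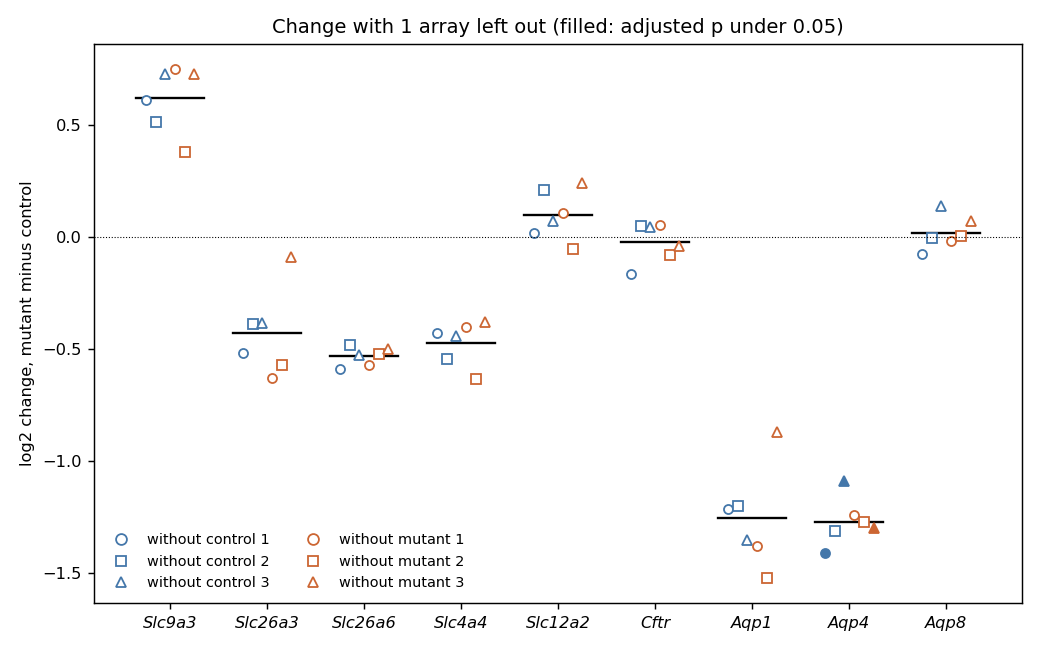
Log2 change, mutant minus control (y axis), of each gene with all 6 arrays (black line) and with 1 array left out (points; filled where the adjusted p is under 0.05). Aqp4 stays between -1.41 and -1.09 and is called in 3 of 6 refits, while Slc26a3 moves from -0.43 to -0.092 without mutant 3.

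Among the brighter genes that lay lower in the mutant mean, the mutant SD (n = 3) was 0.070 for Slc26a6, 0.28 for Slc4a4, 0.59 for Slc26a3 and 0.68 for Aqp1. In Slc26a3 and Aqp1 mutant 3 was the lowest animal by a wide margin. Mutant 3 was also the mutant with the most remaining Hnf4a signal, 9.82 against 8.83 in both others, and 1 of the arrays with Y-linked transcripts. With Eif2s3y as a covariate, an alternative chosen after the data were seen, the differences were -0.45 for Slc26a3 (adjusted p = 0.325 in limma's test) and -1.27 for Aqp1 (adjusted p = 0.0883).

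Beyond these 9 genes, 97 other genes of ion and water transport were listed and 84 were measured. In limma's test 1 rose, Fxyd3, and 1 fell, Clcn2. At an unadjusted p under 0.05 there were 24, of which 7 were higher and 17 lower, beside 954 higher and 1246 lower among all 18193 genes. The median difference of the 84 was -0.058.

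Fxyd3 belongs to the FXYD family of small proteins that modulate the sodium pump. It read 8.53, 8.37 and 8.27 in controls 1, 2 and 3, and 9.58, 9.30 and 9.42 in mutants 1, 2 and 3. The groups were well apart, and Fxyd3 rose 2.06-fold (log2 change 1.04 ± 0.12 SE, limma adjusted p = 0.0135). The call was lost without control 2 (adjusted p = 0.0764), without control 3 (adjusted p = 0.0923), without control 3 and mutant 2 together (adjusted p = 0.221) and with floored values (adjusted p = 0.0575), within a range of 0.00733 to 0.221 over 18 alternatives. In those 4 fits the change itself was 0.98 to 1.05.

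Atp1b1, which encodes the main beta subunit of the pump in gut, differed by -0.081 and Slc5a1, the sodium/glucose cotransporter gene SGLT1, by -0.041. Of the 14 measured genes in the list of sodium pump and sodium channel genes, which also holds Slc5a1 and the proton pump genes Atp4a and Atp12a, the others with the smallest p were Fxyd5 at 0.34 and the beta subunit gene Atp1b3 at 0.23, and neither passed. Atp1b1, Slc5a1 and the genes named below for their role (Pdzk1, Slc9a3r1, Kcnq1, Kcne3, Sgk1 and Sgk3) were picked after their values were seen.

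Clcn2 encodes the chloride channel ClC-2 of epithelial membranes. It read 8.14, 8.18 and 8.08 in controls and 7.40, 7.47 and 7.37 in mutants. The 3 values of each group were close together, and Clcn2 fell to 60.9% of control (log2 change -0.72 ± 0.09 SE, limma adjusted p = 0.0239). Leaving out mutant 1 kept the call and leaving out any other single array lost it (adjusted p from 0.0556 to 0.116), as did a fit without control 3 and mutant 2 together (adjusted p = 0.307), within a range of 0.0154 to 0.307. In these fits the change itself was -0.77 to -0.69. Among the other 10 measured channels of secretion, Clca1, which encodes a secreted goblet cell protein, differed by 0.35 and the potassium channel gene Kcnk1 by 0.37, and neither passed. Kcnq1 and Kcne3, which together form the basolateral potassium channel of secreting crypt cells, differed by -0.11 and 0.13. Goblet cell markers stood beside Clca1 with 0 of 7 past limma's test, 1 at an unadjusted p under 0.05 and a median of 0.21. Their summed signal was 50280 to 54550 in controls and 53010 to 58213 in mutants.

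Scaffolds and regulators of NHE3 had 0 of 8 measured genes past limma's test and 4 at an unadjusted p under 0.05, with a median of -0.25. Pdzd3, a PDZ scaffold that binds NHE3 and guanylate cyclase C, read 8.06, 8.15 and 8.22 in controls and 7.42, 7.64 and 7.20 in mutants. Chp2, a calcium-binding partner of sodium/hydrogen exchangers, read 8.99, 8.80 and 8.93 in controls and 7.99, 8.45 and 8.08 in mutants. Neither overlapped between groups, with differences of -0.73 ± 0.13 SE and -0.73 ± 0.14 SE and adjusted p of 0.0702 and 0.0791 in limma's test. Ahcyl1, a regulator of NHE3, NBCe1 and CFTR also known as IRBIT, differed by -0.31, and the scaffold genes Pdzk1 and Slc9a3r1 by -0.45 and -0.19. Of the 8 measured, 5 had mutants wholly below controls, against 10.2% of all genes, and Slc9a3r2 (0.14), Ezr (-0.099) and Prkg2 (-0.091) overlapped.

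In the other sodium/hydrogen exchangers, 0 of 6 passed and 1 had an unadjusted p under 0.05, with Slc9a9 at 0.48, Slc9a8 at -0.20 and Slc9a5 at -0.17. With 1 array left out, Slc9a9 ran from 0.30 (without control 1) to 0.66 (without control 2). Slc9a8 ran from -0.28 (without mutant 1) and Slc9a5 from -0.26 (without mutant 2) to -0.12 and -0.065 without mutant 3. The mean over the Slc9a9 probe sets differed by 0.078, and Slc9a5 lay under the array median throughout. In the other anion exchangers and bicarbonate carriers, 0 of 11 passed in limma's test and 3 had an unadjusted p under 0.05, namely Slc4a5 at -0.52, Slc26a11 at -0.37 and Slc4a10 at -0.27. Slc4a5 and Slc4a10 were under the array median throughout, as were 6 of the 11. In the cation chloride cotransporters, 0 of 7 passed and 1 had an unadjusted p under 0.05, Slc12a7 at -0.27, with Slc12a1 at 0.19 (0.11 without mutant 2) and Slc12a8 at 0.16 (0.052 without control 3).

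Among 9 other aquaporins, 0 passed in limma's test and 2 had an unadjusted p under 0.05. Aqp7, the water and glycerol channel of fat cells, read 4.91, 4.77 and 5.50 in controls and 3.68, 4.83 and 4.02 in mutants. Mutant 2, the array with fat transcripts, was the mutant within the control range, and without it the difference moved from -0.88 to -1.21. Aqp11, an intracellular aquaporin, read 8.17, 8.23 and 8.26 in controls and 7.82, 8.05 and 7.34 in mutants, lower in each mutant and lowest in mutant 3, with a difference of -0.48 (adjusted p = 0.311) that was -0.28 without mutant 3. Aqp6 differed by -0.24 and lay under the array median throughout.

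Hormonal and kinase regulators had 0 of 18 past the test and 8 at an unadjusted p under 0.05 in limma, against 12.1% of all genes, and in 9 of the 18 the groups did not overlap, against 17.1%. Nr3c2, the mineralocorticoid receptor gene, read 7.24, 7.34 and 7.21 in controls and 6.27, 6.61 and 6.73 in mutants, and Nr3c1, the glucocorticoid receptor gene, lay 0.49 lower in the mutant mean. Ptger4, which encodes the prostaglandin E2 receptor EP4, read 8.59, 8.66 and 8.61 in controls and 9.34, 9.96 and 9.31 in mutants. The groups did not overlap in Nr3c2, Nr3c1 or Ptger4, with adjusted p of 0.0760, 0.149 and 0.0784. The kinase genes Sgk1 and Sgk3 differed in opposite directions, by 0.76 and -0.83 (limma, adjusted p = 0.234 and 0.216). EP4 is also a receptor of immune cells. Lymphocyte markers had 0 of 9 past limma's test and 4 at an unadjusted p under 0.05. All 9 were higher in the mutant mean, but only 1 did not overlap between groups, and the list mean was 8.11 in control 1 and 7.88 in mutant 1. Their summed signal was 4892 to 7568 in controls and 7622 to 10318 in mutants. Most of it came from Jchain (11.52 to 12.62) and Gzma (8.94 to 11.60), which both overlapped between groups. The part of lymphocytes in the Ptger4 value was not tested.

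**Figure D4:**
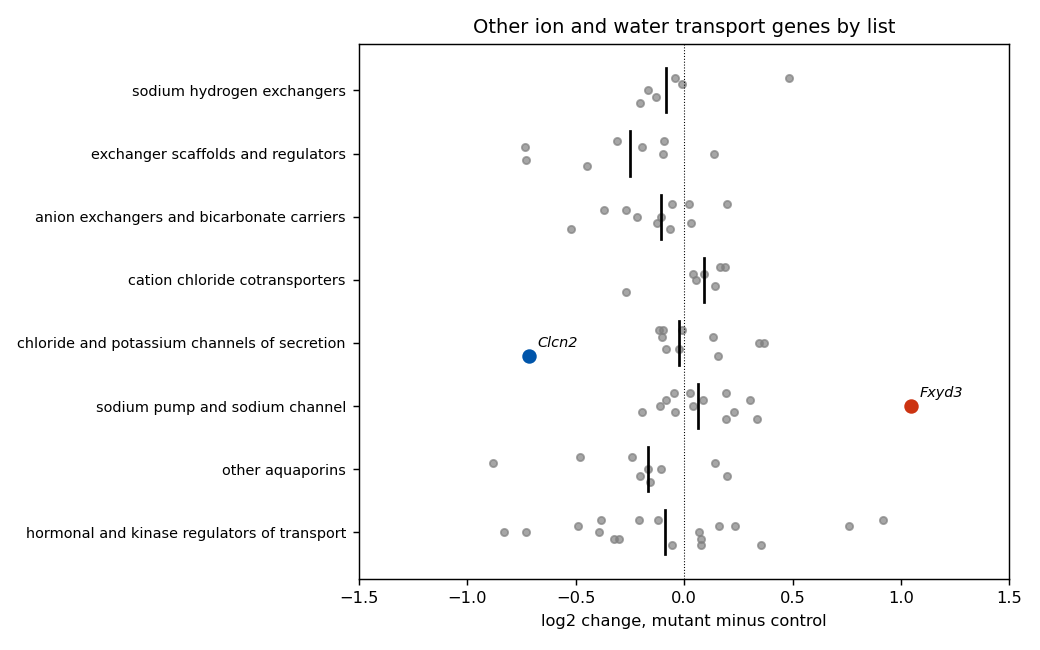
Log2 change, mutant minus control (x axis), of 84 other ion and water transport genes in 8 lists (rows); bars are list medians, and coloured points are genes past an adjusted p of 0.05. Fxyd3 at 1.04 and Clcn2 at -0.72 are the called genes, and the list medians lie between -0.25 and 0.094.

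The genes with values most like those of Aqp4 were sought over the 6 arrays by the root mean square difference of values centred on each gene's mean, among 9095 genes brighter than the median gene. The 5 nearest were the fucosidase gene Fuca2 (0.164), the cytochrome P450 gene Cyp2d22 (0.169), the glutathione transferase gene Gsta4 (0.178), the zinc transporter gene Slc30a2 (0.187) and the export pump gene Abcc2 (0.187). Each of these fell by 1.07 to 1.23, beside a fall of 1.27 in Aqp4, whose mutant values were near background. Any gene with a fall of that size and little spread comes near by this measure.

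**Figure D5:**
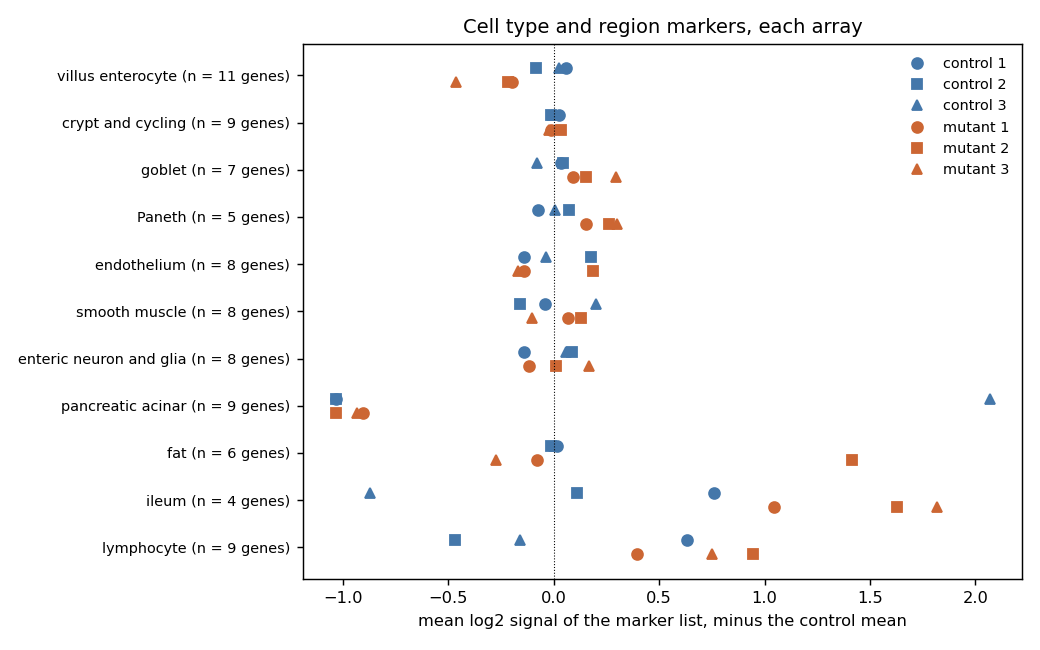
Mean log2 signal of each marker list on each array, minus the control mean (x axis), for 11 cell types or regions (rows). Control 3 stands out in pancreatic acinar genes and mutant 2 in fat genes. The ileal list lies higher in the mutants, with control 1 nearest to them. Villus enterocyte means lie lower in the mutants (12.17 to 12.44 against 12.55 to 12.70). Goblet (12.06 to 12.26 against 11.89 to 12.01) and Paneth means (12.15 to 12.30 against 11.92 to 12.07) lie higher. No gene of the villus enterocyte, goblet and Paneth lists was called. The lymphocyte, endothelium, smooth muscle, neuron and crypt lists overlap between groups.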

How the data were processed

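Each value is a deposited log2 signal of 1 probe set on 1 array. Their range shows the log2 scale. How the authors corrected background, summarised probes and normalised arrays was not given in any source used here. Values were used without further normalisation, and the number of arrays limits the precision. Of 45101 probe sets, 64 controls were left out, 34945 had 1 gene symbol, 932 several and 9160 none listed, by the platform annotation. Groups, taken from sample titles, were compared with limma 3.58.1 (lmFit, eBayes) in R 4.3.3, two-sided, Benjamini-Hochberg adjusted over all 18193 genes. The fit was tested on simulated data. Named were the 9 genes, Hnf4a, called transport genes, the 3 with the smallest p in each list, 5 genes most like the top one, and markers. The members and lists were chosen with earlier results of these data known. Other normalisations, floors, filters, probe set rules, variance models, a replicate block, a sex covariate and omitted arrays were tried as alternatives. Promoter windows came from RefSeq, GRCm38.p6.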

Additional observations from a re-analysis of the deposited data

How the results depend on the processing

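Over the alternatives run, Slc9a3, Slc26a3, Slc26a6, Slc4a4, Aqp1 and Aqp4 kept their direction, and at an adjusted p under 0.05 none of the 9 genes but Aqp4 was called under any of them. Aqp4 fell below the threshold with floored values (-1.27) and without control 3 and mutant 2 together (-1.09), and with 1 array left out it ran from -1.41 to -1.09. The sign turned for Slc12a2 without mutant 2 (-0.053) and without control 3 and mutant 2 together (-0.081), with a range of -0.053 to 0.24 on leaving out 1 array, for Cftr (0.050, 0.045 and 0.051 without control 2, control 3 or mutant 1, within -0.16 to 0.051), and for Aqp8 with array weights (-0.028) and without control 1, control 2 or mutant 1 (-0.078, -0.0030 and -0.018, within -0.078 to 0.14). The count of the 9 genes called was 1, but 0 with floored values, without control 3 and mutant 2 together and at an adjusted p under 0.01, 2 at an adjusted p under 0.10, and 0 to 1 with 1 array left out. The count of other transport genes called was 2, but 1 with floored values, 4 with array weights, 0 without control 3 and mutant 2 together, 6 and 0 at an adjusted p under 0.10 and 0.01, and 0 to 2 with 1 array left out. The replicate numbers are not known to pair animals, and deviations of same-numbered animals correlated at 0.07, 0.07 and -0.02. With the replicate number as a block the counts were 1 and 1, since Clcn2 lost its call (adjusted p = 0.0712). Over all genes the count of 96 became 62 with the block, 59 adjusted over all probe sets, 11 with floored values, 150 with array weights, 190 with the Y-linked covariate, 4 without control 3 and mutant 2 together, 248 and 20 at the other thresholds, and 24, 22 and 41 without control 2, control 3 and mutant 2. Eif2s3y was chosen as that covariate after the data were seen, in place of Ddx3y, and the fit with Ddx3y was not run. For the other named transport genes 413 values kept their sign and call, 11 lost a call and 3 gained one, Pdzd3 with the Y-linked covariate and Nr3c2 and Ptger4 with array weights. The cause of these shifts was not tested. Signal near background limits Aqp8 and the size of the Aqp4 change.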
